A study of Pyrus pyrifolia with 6 samples.

Results

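The flavonoid and anthocyanin synthesis genes of pear fruit skin were taken from a gene table as every gene whose description holds a name of an enzyme of the pathway (chalcone, naringenin, flavanone, flavonoid 3, flavonol synthase, dihydroflavonol, leucoanthocyanidin, anthocyanidin reductase or anthocyanidin 3-O-glucosyltransferase). The wording found 77 of 42933 listed genes. They fall into early steps (23 genes), flavonol synthesis (4), proanthocyanidin synthesis (8) and anthocyanin synthesis (33), and 9 more carry the wording without belonging to these 4 branches. RNA sequencing had been done on the skin of Cuiguan, a cultivar of the sand pear Pyrus pyrifolia whose skin russets in part. The bagged group had 3 libraries of fruit covered with single-layer white bags at 20 days after full bloom and with double-layer yellow-white bags at 40 days. The untreated group had 3 libraries of fruit left without bags, and both groups came from 1 orchard and were sampled at 95 days. The trees were 6-year-old, and skin RNA was extracted with CTAB. How many fruits or trees went into a library is not stated, so p-values measure only the spread among these libraries, which may be in part technical.

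Flavonoids are made from coumaroyl-CoA, the product of the general phenylpropanoid pathway. Chalcone synthase joins it to malonyl units, chalcone isomerase closes the ring, and hydroxylases then give dihydroflavonols. From these, flavonol synthase makes flavonols, which screen ultraviolet light. Dihydroflavonol reductase and anthocyanidin synthase lead toward anthocyanidins, which a 3-O-glucosyltransferase turns into red anthocyanin pigments. Leucoanthocyanidin reductase and anthocyanidin reductase instead make the flavan-3-ols that join into proanthocyanidins, the astringent tannins of fruit skin. In many fruits light raises the pathway, and bags are used to change the colour and finish of the skin.

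Transcripts of a flavanone 3-hydroxylase gene, which acts just after the chalcone steps, and of a leucoanthocyanidin reductase gene, at the entry to catechin, were lower in the skin of bagged fruits under every alternative tried. The main chalcone synthase, chalcone isomerase, dihydroflavonol reductase and anthocyanidin reductase genes did not pass the test. Of the 77 genes 43 had enough counts to be tested, and 6 of these (13.95%) fell in bagged skin at an adjusted p below 0.05 in edgeR's quasi-likelihood test, with p-values adjusted by Benjamini-Hochberg over all tested genes. No gene rose, 37 did not pass, and 16 had an unadjusted p below 0.05. Over all 25139 genes tested, 1.69% were called lower, 0.971% higher and 2.67% in either direction. Of the 6, LOC103938522, LOC108865453, LOC103951514 and LOC103930796 passed the filter on low counts only through their untreated libraries. The share of 13.95% includes these genes and is a description only. The median log2 fold change, bagged over untreated, was -0.30 over the tested flavonoid genes and -0.01 over all tested genes. In counts scaled to library size, the ranges of the groups did not overlap in 16 of the 43 flavonoid genes (37.2%), against 21.7% of all tested genes. Of these 6 genes, 3 were still called when bagged replicate 1, untreated replicate 1 or untreated replicate 3 was omitted, and 2 when bagged replicate 2, bagged replicate 3 or untreated replicate 2 was. Omitting untreated replicate 3 also brought in 1 other gene, LOC103945854, for 4 calls in all. DESeq2 called 9 lower and 1 higher, and with no filter on low counts 7 were lower and 1 higher. In the plots of fold changes and levels, CHS is chalcone synthase, CHI chalcone isomerase, CHIL chalcone isomerase 3, F3H flavanone 3-hydroxylase, F3'H flavonoid 3'-hydroxylase, FLS flavonol synthase, DFR dihydroflavonol reductase, ANS anthocyanidin synthase, LAR leucoanthocyanidin reductase, ANR anthocyanidin reductase and 3-O-GT a 3-O-glucosyltransferase, HID-like a 2-hydroxyisoflavanone dehydratase-like gene and OMT-like a methyltransferase-like gene.

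**Figure D1:**
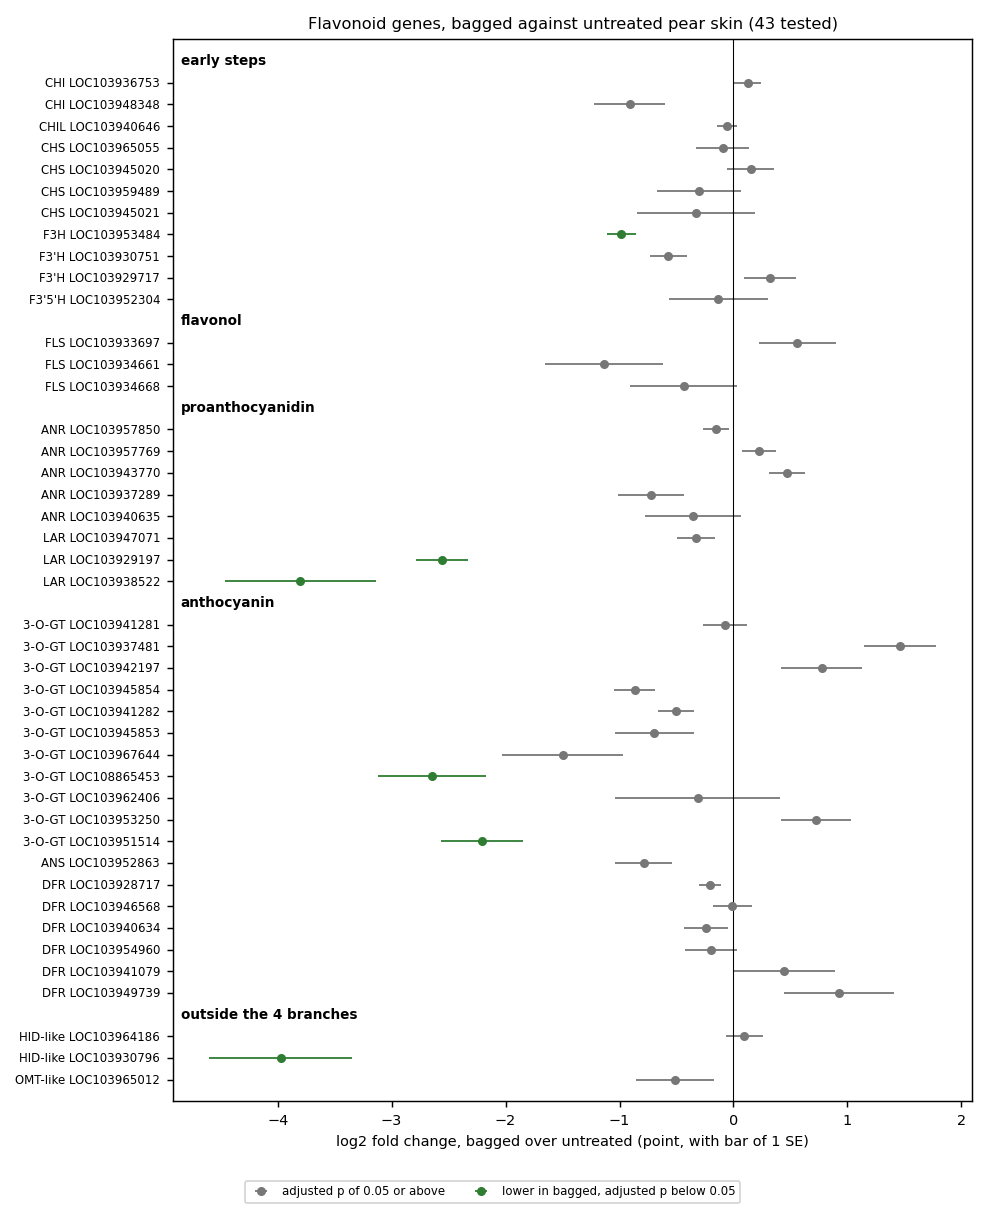
Log2 fold change, bagged over untreated (horizontal axis), of the 43 tested genes, grouped by branch, with a bar of 1 standard error (SE). Green points mark the 6 genes lower in bagged skin at an adjusted p below 0.05, and the grey point furthest right, at 1.46, is LOC103937481.

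Most of the pathway's well expressed genes did not pass the test. Values scaled by gene length and sequencing depth (FPKM, made by the authors) allow levels to be set beside each other. Of the 8 tested genes with a mean of at least 20 FPKM, 1 fell, and their log2 fold changes ran from -0.98 to 0.09. Of the 11 tested genes with a mean under 1 FPKM, 4 fell, with log2 fold changes from -3.98 to 0.73. The share of all tested genes called at each level was not computed, so these counts cannot be read as a link between level and fall. Summed over the early steps, FPKM was 266 ± 45.9 in bagged and 307.7 ± 50.7 in untreated skin (SD, n = 3 each, as in all such values here). For flavonol synthase the sum was 5.17 ± 1.14 in bagged and 4.37 ± 1.87 in untreated skin. Proanthocyanidin genes summed to 91.8 ± 6.56 in bagged and 109 ± 1.99 in untreated skin, and anthocyanin genes to 137 ± 14.1 in bagged and 157 ± 13.5 in untreated skin. Libraries of the groups overlapped in these sums for all branches but the proanthocyanidin one, where bagged libraries lay between 86.5 and 99.2 and untreated ones between 107 and 110.8. In bulk tissue, fewer cells of a type and less RNA per cell cannot be told apart.

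Among the early steps, 1 of 11 tested genes fell and no gene passed in the other direction. The median was -0.13 on the log2 scale. Genes described as flavonol synthase/flavanone 3-hydroxylase are given below with the flavonol branch. Apart from these, flavanone 3-hydroxylase, which turns naringenin into dihydrokaempferol, is represented by 1 gene, described as naringenin,2-oxoglutarate 3-dioxygenase (LOC103953484, scaffold NW_008988143.1, 529239 to 531635). It had 33.0, 24.2 and 26.9 FPKM in bagged replicates 1 to 3, against 60.3, 52.6 and 52.7 FPKM in untreated replicates 1 to 3. Every bagged library lay below every untreated one, and the mean in bagged skin was 50.8% of that in untreated skin. The log2 fold change was -0.98 ± 0.13 (SE, edgeR adjusted p = 0.0126), and the gene was called under every alternative tried, with adjusted p-values from 0.0239 to 0.0462 when 1 library was left out.

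Chalcone synthase, the first committed enzyme, had 4 tested genes and none passed. The best expressed was LOC103965055 (scaffold NW_008988322.1, 274008 to 275842), which held 85.9% ± 0.808 of the family's FPKM in bagged skin and 87.4% ± 2.24 in untreated skin. Its FPKM was 159, 97.5 and 134 in bagged replicates 1 to 3 and 168, 97.9 and 149 in untreated replicates 1 to 3. Replicate 2 was the lowest of both groups, and the spread within groups exceeded the difference between them (log2 fold change -0.10 ± 0.23, adjusted p = 0.895, positive without bagged replicate 2 or untreated replicate 1). The second gene, LOC103945020, had 19.5 ± 3.33 FPKM in bagged and 17.5 ± 4.53 FPKM in untreated skin. The remaining pair, LOC103959489 and LOC103945021, stayed below 1.5 FPKM in every library. LOC103945020 and LOC103945021 lie 33975 bases apart on 1 scaffold. A further 5 genes described only by chalcone and stilbene synthase domains had no count or, for 1 gene, 1 count in all.

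The chalcone isomerase gene LOC103936753 had 15.98, 17.7 and 16.4 FPKM in bagged skin and 17.1, 13.2 and 15.3 FPKM in untreated skin (log2 fold change 0.13 ± 0.12, adjusted p = 0.666). The next gene, LOC103940646, is described as probable chalcone--flavonone isomerase 3, a type that in Arabidopsis assists chalcone synthase without isomerase activity of its own. It had 39.5 ± 2.62 FPKM in bagged and 40.9 ± 1.94 FPKM in untreated skin, and the groups overlapped (adjusted p = 0.824). A gene known only by a chalcone-flavanone isomerase domain, LOC103948348, had 1.11 FPKM at most (0.560, 0.531 and 0.449 in bagged, 0.763, 1.11 and 1.02 in untreated skin). Its groups did not overlap, and its adjusted p was 0.202.

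Flavonoid 3'-hydroxylase adds the second hydroxyl group of the B ring, which sets the quercetin and cyanidin types apart from the kaempferol types. Its main gene, LOC103930751 (scaffold NW_008988051.1, 1102689 to 1106722), had 19.6, 15 and 20.2 FPKM in bagged skin and 32.4, 23.6 and 25.2 FPKM in untreated skin. Bagged libraries lay below untreated ones without overlap, but the difference missed the threshold (log2 fold change -0.57 ± 0.16, edgeR adjusted p = 0.127). DESeq2 called it lower. The other tested gene, LOC103929717, had 14.2, 8.45 and 9.54 FPKM in bagged and 8.68, 6.57 and 10.4 FPKM in untreated skin, so the groups overlapped. Its listed span overlaps LOC103929713 on the other strand and LOC103929716 on the same strand, each with more counts than its own, and reads of the 3 genes cannot be separated with certainty. The 3'5'-hydroxylase gene LOC103952304, of the step toward the delphinidin type, stayed under 0.6 FPKM in every library. The other 2 such genes were not tested, with 8 counts and none.

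**Figure D2:**
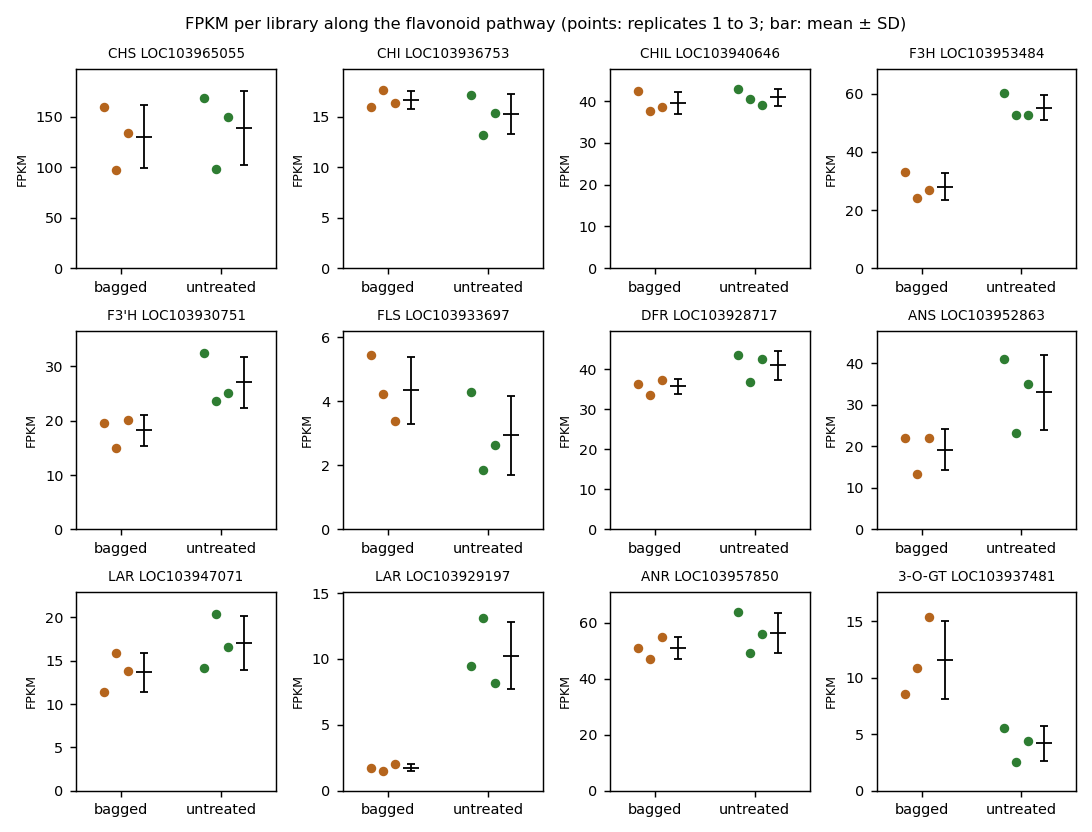
FPKM (vertical axis of each panel, from 0) of 12 genes in pathway order, with bagged libraries at the left and untreated libraries at the right of each panel, points for replicates 1 to 3 and a bar for the mean ± SD. F3H LOC103953484 and LAR LOC103929197 show lower bagged points with no overlap and pass the test, while F3'H LOC103930751 and ANS LOC103952863 are lower, and 3-O-GT LOC103937481 is higher, without overlap and without passing it.

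Flavonol synthase competes with dihydroflavonol reductase for dihydroflavonols. None of its 3 tested genes passed, and their levels were low. LOC103933697, which held 76.4% of the family's FPKM, had 5.46, 4.22 and 3.38 FPKM in bagged and 4.29, 1.87 and 2.65 FPKM in untreated skin (log2 fold change 0.56 ± 0.34, adjusted p = 0.474). The groups overlapped. LOC103934661 had 8, 10 and 6 counts in bagged libraries and 29, 12 and 12 counts in untreated ones, a log2 fold change of -1.14 ± 0.51 with an adjusted p of 0.336, and the FPKM ranges of the groups did not overlap. The fourth gene, LOC103956721, had 2 counts in all and was not tested. The summed level of this branch was near 5 FPKM, against sums of 92 to 157 FPKM for the proanthocyanidin and anthocyanin branches.

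Of the 8 proanthocyanidin genes, all tested, 2 fell. The median log2 fold change was -0.34. Both genes that fell encode leucoanthocyanidin reductase, which makes catechin from leucocyanidin. LOC103929197 (scaffold NW_008988477.1, 155689 to 159663) had 1.75, 1.47 and 2.003 FPKM in bagged replicates 1 to 3, against 9.46, 13.1 and 8.18 FPKM in untreated replicates 1 to 3. The bagged mean was 1.74 ± 0.269 FPKM and the untreated mean 10.3 ± 2.57 FPKM. The log2 fold change was -2.56 ± 0.23 (edgeR adjusted p = 0.0060), and the call held under every alternative tried, with adjusted p-values from 0.0064 to 0.0321 when 1 library was left out.

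LOC103938522 (scaffold NW_008988055.1, 659555 to 663330) is a far weaker gene. Its counts were 6, 1 and 1 in bagged libraries and 23, 57 and 39 in untreated ones. The fitted log2 fold change of -3.80 ± 0.66 (edgeR adjusted p = 0.0305) depends on the prior count at such low counts, and the call was lost when any library but bagged replicate 1 was left out (adjusted p up to 0.0947). The filtered limma fits on log2 FPKM left out LOC103938522, which did not reach 1 FPKM in 3 libraries, and the unfiltered one called it. The best expressed gene of the family, LOC103947071, did not pass. It had 11.4, 15.9 and 13.8 FPKM in bagged and 14.2, 20.4 and 16.6 FPKM in untreated skin, and the groups overlapped (log2 fold change -0.33 ± 0.17, adjusted p = 0.399).

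The shares of the genes in the family follow from the levels above and restate the fall of LOC103929197. LOC103929197 held 13.1%, 8.44% and 12.7% of the family's FPKM in bagged libraries, against 38.4%, 36.8% and 30.8% in untreated libraries. LOC103947071 held 87.8% ± 3.24 in bagged and 59.2% ± 2.999 in untreated skin. The summed FPKM of the 3 genes was 15.5 ± 2.01 in bagged skin, 53.6% of the 28.9 ± 5.88 in untreated skin. The highest bagged library, at 17.4, lay below the lowest untreated one, at 24.6.

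**Figure D3:**
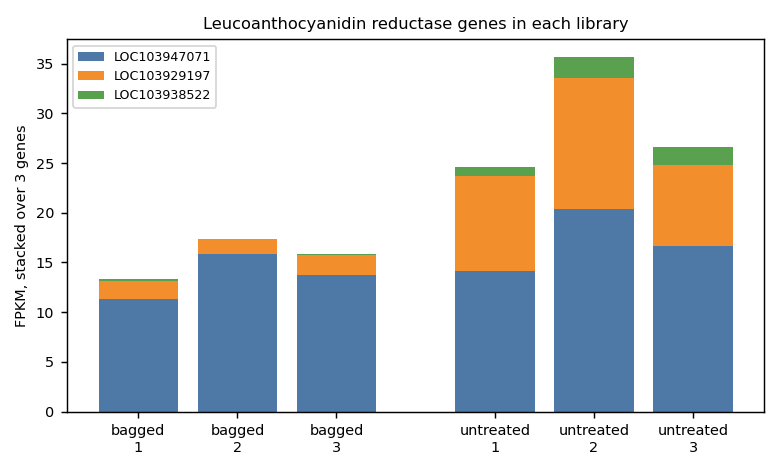
FPKM of the 3 leucoanthocyanidin reductase genes (vertical axis, stacked from 0) in each bagged and untreated library (horizontal axis). The bars reach 13.4 to 17.4 in bagged libraries and 24.6 to 35.6 in untreated ones, and the orange segment, LOC103929197, is 1.47 to 2.003 in bagged and 8.18 to 13.1 in untreated libraries.

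Anthocyanidin reductase, which makes epicatechin from cyanidin, had 5 tested genes and none passed. The family's sum was 76.3 ± 7.10 FPKM in bagged and 79.7 ± 6.95 FPKM in untreated skin. Its main gene, LOC103957850 (scaffold NW_008988039.1, 1379716 to 1382156), had 50.8, 47.0 and 54.9 FPKM in bagged and 63.7, 49.2 and 56.0 FPKM in untreated skin, a log2 fold change of -0.15 ± 0.11 (adjusted p = 0.584). LOC103957769, 1750 bases away on the same scaffold, had 10.7, 8.42 and 11.8 FPKM in bagged and 9.48, 8.46 and 8.50 FPKM in untreated skin. These overlapping levels gave opposite signs for the neighbours, and neither passed. Of the other 3 genes, LOC103943770 was higher in bagged skin without overlap (9.66, 9.92 and 11.9 FPKM, against 6.796, 7.01 and 8.89 FPKM in untreated skin, adjusted p = 0.197). LOC103937289 was lower without overlap (4.19, 2.29 and 2.90 FPKM in bagged, 4.90, 4.76 and 5.75 FPKM in untreated skin, adjusted p = 0.28). Both were chosen here after their values were seen.

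Of 18 tested genes assigned to anthocyanin synthesis, 2 fell. The median log2 fold change was -0.22. Of the 2, 1 was still called without untreated replicate 1 and 0 without any other library, and omitting untreated replicate 3 brought in LOC103945854 instead. Dihydroflavonol reductase and anthocyanidin synthase stand before the fork to anthocyanins and epicatechin and serve both. The dihydroflavonol reductase family, with 8 genes of which 6 were tested, summed to 73.7 ± 0.932 FPKM in bagged and 80.5 ± 5.63 FPKM in untreated skin, and none passed. LOC103928717, which is described as able to reduce flavanones as well, held 49.7% of this sum. Its FPKM was 36.3, 33.6 and 37.2 in bagged and 43.5, 36.8 and 42.5 in untreated skin (log2 fold change -0.20 ± 0.10, adjusted p = 0.358). LOC103946568 was close to level, with 18.3 ± 3.29 FPKM in bagged and 18.3 ± 2.97 FPKM in untreated skin. Another gene, LOC103940634, lies 2648 bases from the anthocyanidin reductase gene LOC103940635, and had 12.8 ± 2.54 FPKM in bagged and 15.1 ± 0.721 FPKM in untreated skin.

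Anthocyanidin synthase, named leucoanthocyanidin dioxygenase in the table, has 1 expressed gene, LOC103952863 (scaffold NW_008988135.1, 387942 to 389725). It had 22.1, 13.5 and 22 FPKM in bagged and 41.0, 23.2 and 35.0 FPKM in untreated skin. Replicate 2 was again the lowest in each group, and the highest bagged library, at 22.1, lay just under the lowest untreated one, at 23.2. The log2 fold change of -0.79 ± 0.25 did not pass (edgeR adjusted p = 0.178), though DESeq2 called it lower. The second gene of the family, LOC103958614, had 21 counts in all. Of the 22 tested pathway genes with a mean of at least 5 FPKM, 14 were lowest in bagged replicate 2, 12 in untreated replicate 2 and 9 in both.

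The 3-O-glucosyltransferases, which fix sugar to anthocyanidins or flavonols, showed the widest range. The wording found 23 such genes, 8 of them with no count in any library, and 11 were tested. Their summed FPKM was 44.0 ± 9.71 in bagged and 43.1 ± 4.89 in untreated skin, while single genes ran from -2.64 to 1.46 on the log2 scale of fold change. LOC103937481 (scaffold NW_008988899.1, 18153 to 22542), a 3-O-glucosyltransferase 7-like gene, had 8.56, 10.8 and 15.3 FPKM in bagged and 5.58, 2.58 and 4.42 FPKM in untreated skin. All bagged libraries lay above all untreated ones, with a log2 fold change of 1.46 ± 0.31, but the gene missed the threshold (edgeR adjusted p = 0.0578). It was called higher by DESeq2 and with no filter on low counts. LOC103941281, with the highest mean of the family, had 9.18 ± 1.49 FPKM in bagged and 9.63 ± 2.16 FPKM in untreated skin.

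The 2 glucosyltransferase genes that fell were both weak. LOC108865453 (5-like, scaffold NW_008988283.1, 480013 to 482249) had 5, 11 and 12 counts in bagged and 34, 101 and 45 counts in untreated libraries, a log2 fold change of -2.64 ± 0.47 (edgeR adjusted p = 0.0338). It overlaps LOC103963186, a gene of the same description on the same strand with no count at all. LOC103951514 (2-like, scaffold NW_008988121.1, 229984 to 232100) had 10, 5 and 9 counts in bagged and 33, 48 and 32 counts in untreated libraries, a log2 fold change of -2.21 ± 0.36 (adjusted p = 0.0229). Both genes were lower in every bagged library than in any untreated one. The call of LOC108865453 was lost when any library but untreated replicate 1 was left out (adjusted p up to 0.112), and that of LOC103951514 was lost without each of the 6 libraries (0.0504 to 0.0846). The filtered limma fits on log2 FPKM left out LOC108865453, which did not reach 1 FPKM in 3 libraries, and the unfiltered one did not call it. LOC103951514 was called by all forms of limma. LOC103945854 missed the threshold narrowly (5.21, 5.20 and 5.55 FPKM in bagged, 11.9, 9.63 and 7.45 FPKM in untreated skin, adjusted p = 0.0532), and was chosen after its values were seen. It was called lower with no filter on low counts, by DESeq2 and without untreated replicate 3.

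Outside the 4 branches the wording took in 5 genes described as 2-hydroxyisoflavanone dehydratase-like, 3 flavonoid 3',5'-methyltransferase-like genes and 1 deoxychalcone synthase-like gene. The first name comes from isoflavonoid synthesis in legumes. LOC103930796 (scaffold NW_008988523.1, 145791 to 146833) fell, with 1, 3 and 2 counts in bagged and 39, 50 and 13 counts in untreated libraries and a fitted log2 fold change of -3.98 ± 0.63 (edgeR adjusted p = 0.0210). The call was lost when any library but untreated replicate 3 was left out (adjusted p up to 0.0909). The filtered limma fits on log2 FPKM left out LOC103930796, which did not reach 1 FPKM in 3 libraries, and the unfiltered one did not call it. A relative with far more transcripts, LOC103964186, did not pass, with 82.7 ± 16.1 FPKM in bagged and 77.1 ± 10.9 FPKM in untreated skin. The methyltransferase-like gene LOC103965012 had 10.8, 14.1 and 15.1 FPKM in bagged and 29.3, 10.3 and 17.6 FPKM in untreated skin, where 1 untreated library stood high and the groups overlapped.

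The 34 genes that were not tested comprise 19 with no count in any library and 15 with 1 to 41 counts over the 6 libraries. A count of 0 allows up to 3 counts per library, which over the libraries is a CPM (counts scaled to library size) of 0.153 to 0.190.

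The authors' deposited table, whose test is not named, lists 9 flavonoid genes lower and 1 higher at an adjusted p below 0.05. These are the 6 genes above together with LOC103930751, LOC103952863 and LOC103945854 as lower and LOC103937481 as higher. Over all 42933 listed genes the same deposited test gives 767 lower and 765 higher. The authors' deposited table gives LOC103953484 a log2 fold change of -0.98 and LOC103929197 one of -2.56.

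Markers of cork, the tissue of russeted skin, were lower in the same libraries. Of 16 tested genes of suberin synthesis and export (18 listed) 12 fell (75%, against 1.69% of all tested genes). Without bagged replicate 2 the number was 7. No listed gene was at 0, and the summed FPKM was 47.4, 51.9 and 65.5 in bagged libraries, against 222, 302 and 185 in untreated libraries. Untreated replicate 2, the library highest in this sum, was also the highest of the untreated libraries for 5 of the 6 flavonoid genes that fell. Flavanone 3-hydroxylase was the exception, being highest in untreated replicate 1. In percent of the untreated mean, the cork sum was 20.04, 21.96 and 27.7 in bagged libraries, LOC103929197 was 17.03, 14.3 and 19.5, and LOC103953484 was 59.8, 43.7 and 48.8. Of the epidermis and cuticle markers 3 of 12 tested genes rose (24 listed, 3 of them at 0), against 0.971% of all tested genes. Their sums were 128, 176 and 224 FPKM in bagged and 95.9, 79.9 and 96.4 FPKM in untreated libraries. Called genes LOC103947140 and LOC103947136, both of 3-ketoacyl-CoA synthase 6 type, have overlapping spans on the same strand, so their reads cannot be separated with certainty. Without overlap of the groups, 6 of the 12 were higher (50%) and 2 lower (16.7%, LOC103965506 and LOC103938693, not called). Over all tested genes the groups did not overlap in 21.7%, both directions together. Among flesh markers 1 of 19 tested genes fell (5.26%, against 1.69% of all tested genes, 36 listed, 6 at 0). Their sums were 651 to 722 FPKM in bagged and 490 to 583 FPKM in untreated libraries. Of xylem and stone cell markers 1 of 14 fell (7.14%, with 149 to 158 FPKM in bagged and 133 to 158 FPKM in untreated libraries). Of 7 tested phloem markers none passed (12 listed, 2 at 0, 36.8 to 40.9 FPKM in bagged, 32.2 to 62.8 FPKM in untreated libraries). Of the 3 epidermis calls 2 were left when untreated replicate 3 was omitted, 1 when bagged replicate 1 was omitted and 0 when any other library was. The flesh call was lost when any library but untreated replicate 3 was omitted, and the xylem call without bagged replicate 1 or 2 or untreated replicate 2 or 3. The part of these tissues in the flavonoid results was not tested.

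**Figure D4:**
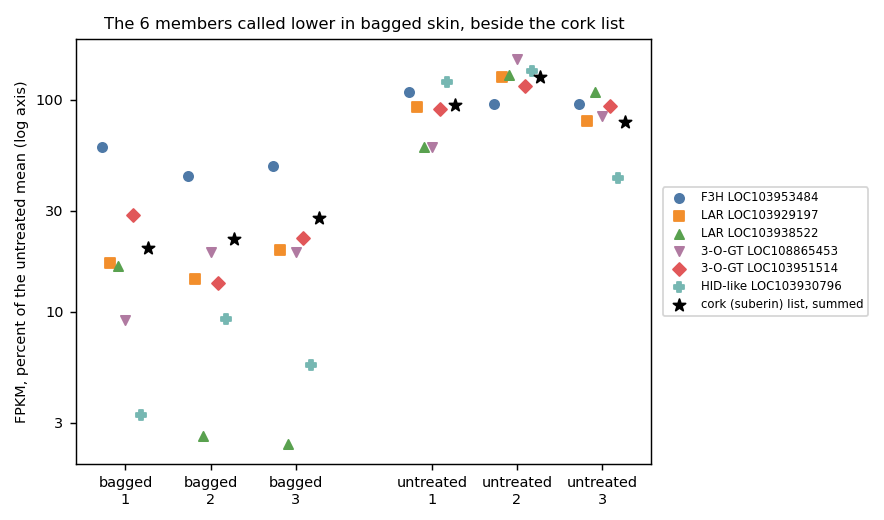
FPKM in percent of the untreated mean (vertical axis, log scale) of the 6 flavonoid genes that fell and of the summed cork list (black stars), in each bagged and untreated library (horizontal axis). Flavanone 3-hydroxylase (blue circles) lies at 43.7 to 59.8 percent in bagged libraries and LOC103929197 (orange squares) at 14.3 to 19.5 percent, beside 20.04 to 27.7 percent for the cork list.

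Upstream of the pathway, the general phenylpropanoid genes that feed it moved in both directions. Of 19 tested genes (28 listed) 3 fell (15.8%) and 1 rose, against 1.69% and 0.971% of all tested genes. The median of the 19 was -0.15 on the log2 scale. The 3 that fell encode 4-coumarate--CoA ligase, which makes coumaroyl-CoA. LOC103939486 had 5.33, 4.24 and 7.06 FPKM in bagged and 17.2, 19.9 and 17.3 FPKM in untreated skin, a log2 fold change of -1.71 ± 0.18 (edgeR adjusted p = 0.0073). The gene named 4CL had 6.85 ± 0.787 FPKM in bagged and 13.9 ± 0.920 FPKM in untreated skin (-1.02 ± 0.12, adjusted p = 0.0091), and LOC103943288 had 5.63 ± 0.956 FPKM in bagged and 11.1 ± 0.674 FPKM in untreated skin (-0.98 ± 0.14, adjusted p = 0.0169). The first 2 calls held with any library left out, and that of LOC103943288 was lost without bagged replicate 1 or untreated replicate 1 or 2 (adjusted p up to 0.0607). Other tested genes with ligase names did not pass, with fold changes of both signs. Those named next were chosen after their values were seen. LOC103927137 (ligase-like 5) was higher without overlap, with 45.1 ± 18.1 FPKM in bagged and 15.9 ± 3.57 FPKM in untreated skin (adjusted p = 0.0538). LOC103947702 (ligase-like 7) was lower without overlap, with 119.8 ± 7.97 FPKM in bagged and 144.7 ± 13.1 FPKM in untreated skin (adjusted p = 0.208). The gene that rose, named here after its values were seen, is phenylalanine ammonia-lyase 1 (LOC103934948), the entry enzyme. It had 61.3, 37.5 and 48.4 FPKM in bagged and 21.4, 19.5 and 26.6 FPKM in untreated skin (1.12 ± 0.19, adjusted p = 0.0293). Its call was lost without bagged replicate 1 or 3 or untreated replicate 1 or 2 (adjusted p up to 0.103). The other tested ammonia-lyase gene, LOC103962533, was higher without overlap but did not pass (0.78 ± 0.22, adjusted p = 0.129). Its FPKM was 26.1 ± 6.16 in bagged and 15.2 ± 3.52 in untreated skin. The best expressed gene, the cinnamate 4-hydroxylase LOC103945990, did not pass, with 198 ± 21.9 FPKM in bagged and 207 ± 5.44 FPKM in untreated skin.

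Decoration and transport of flavonoids gave no calls. None of 6 tested glycosyltransferase genes outside the wording above passed, and 5 of the 6 had positive fold changes (median 0.35). The best expressed, LOC103964343, a UDP-glycosyltransferase 88A1-like gene, had 54.3, 55.9 and 54.2 FPKM in bagged and 42.4, 38.9 and 50.1 FPKM in untreated skin (log2 fold change 0.32 ± 0.11, adjusted p = 0.188). The groups did not overlap. Glutathione S-transferases F12 and F13, of which F12 carries anthocyanins to the vacuole in Arabidopsis, were listed but too low to test, with at most 0.56 FPKM in any library.

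Of 33 tested regulators named for control of the pathway or related to such genes (52 listed), 8 fell (24.2%, against 1.69% of all tested genes). The median of the 33 was -0.50 on the log2 scale. Of the 8, 1 was still called when bagged replicate 1 or 2 was omitted, and 4 when untreated replicate 1 or 2 was. Omitting bagged replicate 3 kept 5 and added 1 other regulator, and omitting untreated replicate 3 kept 6. The 3 with the smallest p-values were the Myb4-like gene LOC103952062 and the repressor MYB6-like genes LOC103953353 and LOC103947039. LOC103952062 had 4, 2 and 2 counts in bagged and 32, 77 and 43 counts in untreated libraries (log2 fold change -4.16 ± 0.49, adjusted p = 0.0091). Its call held with any library left out. LOC103953353 had 0.83, 0.89 and 1.87 FPKM in bagged and 6.82, 11.4 and 6.48 FPKM in untreated skin (-2.77 ± 0.39, adjusted p = 0.0148). LOC103947039 had 0.91 ± 0.381 FPKM in bagged and 6.01 ± 2.18 FPKM in untreated skin (-2.71 ± 0.40, adjusted p = 0.0170), and both MYB6-like calls were lost without bagged replicate 1 or 2 (adjusted p up to 0.0624 and 0.0546). Besides these and the 2 activators described next, a myb-related protein 1-like gene (LOC103941921) and a pair of other myb-related genes (LOC103927485 and LOC103939446) fell, at log2 fold changes of -1.71, -3.75 and -3.14. LOC103927485 had 1, 0 and 7 counts in bagged and 24, 49 and 38 counts in untreated libraries. For LOC103939446 the counts were 6, 1 and 3 in bagged and 26, 45 and 22 in untreated libraries. Like LOC103952062, both passed the filter on low counts only through untreated libraries. Leaving out any bagged replicate lost the call of LOC103941921. With 1 library left out, the call of LOC103927485 held only without bagged replicate 3, and that of LOC103939446 never held.

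Activators of the anthocyanin and proanthocyanidin branches, and 1 further Myb4-like gene, were named here after their values were seen. The TT2 gene LOC103951922, whose namesake in Arabidopsis switches on proanthocyanidin synthesis, fell, with 0.80, 1.19 and 2.39 FPKM in bagged and 6.75, 7.18 and 5.36 FPKM in untreated skin (-2.13 ± 0.38, edgeR adjusted p = 0.0338). A TT2-like gene with more transcripts, LOC103961516, had 48.7, 48.0 and 41.1 FPKM in bagged and 38.3, 16.6 and 31.6 FPKM in untreated skin, higher without overlap and with an adjusted p of 0.283. The MYB114-like gene LOC103961513 fell, with 5.46, 7.17 and 4.61 FPKM in bagged and 12.6, 15.6 and 10.7 FPKM in untreated skin (-1.18 ± 0.22, adjusted p = 0.0356). The calls of both that fell were lost without bagged replicate 1 or 2 or untreated replicate 1 or 2 and, for LOC103961513, without bagged replicate 3 (adjusted p up to 0.105 and 0.127). The names MYB75, MYB90, MYB113 and MYB114 belong to the anthocyanin activators of Arabidopsis, and 6 of the 8 genes so described had no count in any library. Besides LOC103961513 the only tested one was the MYB114-like gene LOC103932572, which did not pass (0.51 ± 0.39, adjusted p = 0.587). It had 1.33 ± 0.115 FPKM in bagged and 0.933 ± 0.414 FPKM in untreated skin. The Myb4-like gene LOC103941953 had 27.2, 11.4 and 22.7 FPKM in bagged and 1.06, 0.52 and 5.19 FPKM in untreated skin, higher without overlap but not past the threshold (3.20 ± 0.73, adjusted p = 0.0683). The best expressed regulator, the TRANSPARENT TESTA GLABRA 1-like gene LOC103943354, a partner of MYB and bHLH factors, had 44.5 ± 1.47 FPKM in bagged and 38.4 ± 3.15 FPKM in untreated skin (adjusted p = 0.298).

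**Figure D5:**
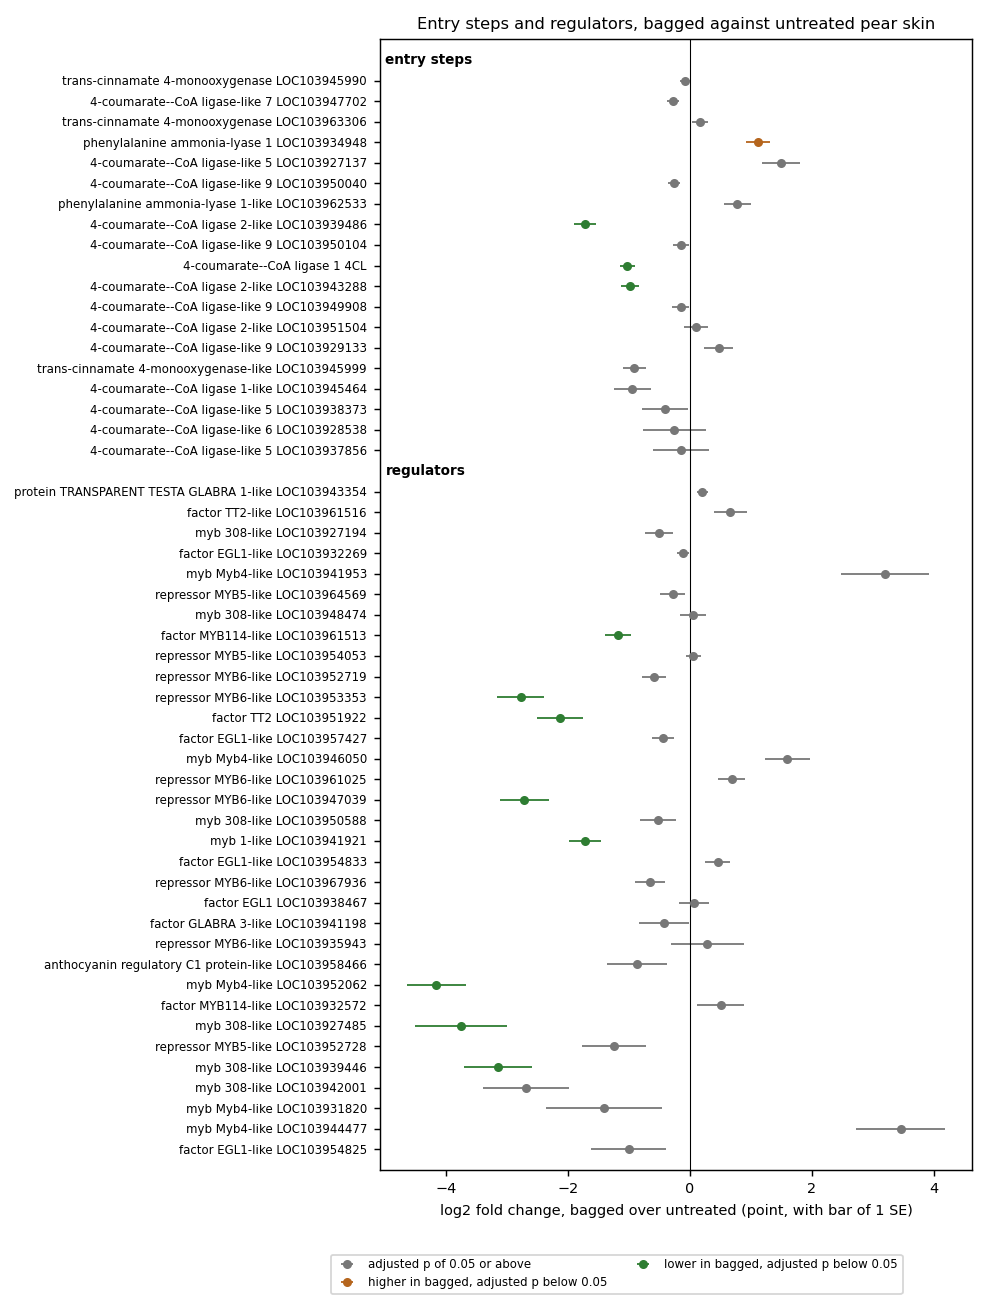
Log2 fold change, bagged over untreated (horizontal axis), of the 19 tested entry-step genes and the 33 tested regulators, each block ordered by mean FPKM from the top, with a bar of 1 SE, green where lower and orange (phenylalanine ammonia-lyase 1) where higher in bagged skin at an adjusted p below 0.05. Myb4-like genes stand at both ends, from -4.16 for LOC103952062 to 3.46 for LOC103944477, which did not pass.

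The photoreceptors and light-signalling factors that relay light to the pathway in other plants gave 1 call, lower, among 49 tested genes (63 listed). That is 2.04%, near the 1.69% of all tested genes called lower. The median of the 49 was -0.06 on the log2 scale. The B-box zinc finger protein 19-like gene LOC103937075 fell, with 1.92, 1.48 and 1.21 FPKM in bagged and 4.66, 4.99 and 4.39 FPKM in untreated skin (-1.61 ± 0.24, edgeR adjusted p = 0.0171). Its call was lost without bagged replicate 2 or untreated replicate 1 or 2 (adjusted p up to 0.0646). The most abundant, the cryptochrome-1-like LOC103967461, had 83.8 ± 9.17 FPKM in bagged and 97.9 ± 7.34 FPKM in untreated skin (adjusted p = 0.333).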

How the data were processed

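Read counts per gene were deposited by the authors for 3 bagged and 3 untreated libraries. Per the submitters' processing notes HISAT2 was among the tools. Counting program, strandedness, assembly and annotation are each not given in the sources used here. Positions and descriptions are therefore those of the deposited table, and overlapping genes cannot be told apart. The FPKM values were made by the authors and deposited in the same table. The authors' deposited log2 fold changes and adjusted p-values are used only where named, and their group means, a scaled signal per the file headers, were not used here.

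Library totals ran from 15764049 to 19546285 counts. Differential expression was tested on the counts with edgeR 4.0.16 (R 4.3.3). For this, 25139 of 42933 genes passed filterByExpr (minimum count 10, minimum total 15), TMM factors were applied, and bagged was compared with untreated by the quasi-likelihood test with no covariate and Benjamini-Hochberg adjustment over all tested genes, called below 0.05. Standard errors (SE) were derived from the F statistic and had a median of 0.17. Replicates differed by more than sampling noise, with a chi-square of 12.3 to 20.5 for each degree of freedom. Limits from a count of 0 cover counting error only.

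The genes, lists and alternatives were chosen with earlier results of these data known. Named were all called pathway genes, the 2 best expressed tested genes per enzyme family and genes of at least 5 FPKM that differ at least 2-fold without overlap, and for other lists the 3 smallest p-values among called genes and the best expressed gene. Any other gene named was chosen after its values were seen. Alternatives were RLE factors, no filter, DESeq2 1.42.0, limma 3.58.1 on log2(FPKM + 1) or log2(FPKM + 0.1) for genes of at least 1 FPKM in 3 libraries or for all genes, a block for the replicate number, and each library left out.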

Additional observations from a re-analysis of the deposited data

How the results depend on the processing

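RLE factors, limma on log2 FPKM, no filter, DESeq2, a replicate block and each library left out were compared. Leaving out single libraries gave 135 to 386 lower and 70 to 306 higher calls over all genes, against 426 lower and 244 higher with all libraries. DESeq2 gave 769 lower and 769 higher, and limma on unfiltered log2(FPKM + 1) 154 higher. Called flavonoid genes numbered 2 to 4 lower and 0 to 0 higher over the fits without a library, and 3 lower with limma on either filtered scale. The filtered scales left out LOC103938522, LOC108865453 and LOC103930796, so these genes could not be called there. With no filter and with DESeq2, 1 was higher. Per branch, the lower calls were 1 to 1 (early), 1 to 2 (proanthocyanidin) and 0 to 1 (anthocyanin) without a library. DESeq2 gave 2 early and 4 anthocyanin calls, limma 1 anthocyanin call in each of its forms and 1 proanthocyanidin call on both filtered scales. In the paired fit with the replicate number as a block, 5 flavonoid genes were lower, 1 of them for proanthocyanidins. These were 4 of the 6, without LOC103938522 and LOC103951514, and LOC103952863. Deviations of equally numbered libraries correlated at -0.04, 0.08 and 0.06, so the numbers were not taken as pairs.

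Without a library, entry steps had 2 to 3 lower and 0 to 2 higher calls, regulators 1 to 6 lower, light input 0 to 1, cork 7 to 12, flesh 0 to 1 and xylem 0 to 1 lower, and epidermis 0 to 2 higher. Higher entry calls were 2 with no filter, 3 with DESeq2, 3 with the replicate block and 0 with unfiltered limma. Epidermis calls were 6 with DESeq2 and 1 with unfiltered limma. Flesh calls were 2 with DESeq2, 0 with unfiltered limma and 0 with the block.

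Median log2 fold changes without a library ran from -0.27 to -0.23 (all flavonoid genes), -0.30 to -0.016 (early), -0.86 to -0.22 (flavonol), -0.49 to -0.18 (proanthocyanidin) and -0.30 to -0.19 (anthocyanin). For all flavonoid genes limma gave -0.13 (+ 1), -0.18 (+ 0.1) and -0.13 (unfiltered). The flavonol median was -0.79 with no filter and -0.79 with DESeq2, -0.10 with unfiltered limma, and reversed to 0.47 and 0.60 on the filtered scales, which kept 1 gene. It was -0.18 for proanthocyanidins with limma (+ 1) and -0.054 for anthocyanins with unfiltered limma. Log2 ratios of summed FPKM ran from -0.33 to -0.09 (early), -0.01 to 0.62 (flavonol), -0.30 to -0.20 (proanthocyanidin) and -0.28 to -0.13 (anthocyanin).

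Of single genes, 6 that passed nowhere changed sign without a library. Their log2 fold changes ran from -0.29 to 0.076 for LOC103965055, -0.025 to 0.36 for LOC103945020, -0.37 to 0.11 for LOC103952304, -0.21 to 0.11 for LOC103941281, -0.14 to 0.13 for LOC103946568 and -0.030 to 0.24 for LOC103964186. Causes were not tested. Of the 6 flavonoid genes that fell, 4 had at most 12 counts in any bagged library.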
